A study of Mus musculus with 4 samples.

Results

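Deaf1 ChIP-seq peaks on mouse chromosome 15 were taken as every peak that the authors' 2 peak lists place on that chromosome. They numbered 4662 of 65606 peaks (7.11%) in replicate 1 and 1791 of 26503 (6.76%) in replicate 2. The lists come from C2C12, a mouse myoblast line that fuses into contractile myotubes, after chromatin immunoprecipitation with an antibody against Deaf1. The sample labels call the cells myocytes and the series' own description calls them differentiated myoblasts, and peak lists hold no expression values against which the stage could be checked. The labels name no treatment, and the cells were crosslinked with formaldehyde and their chromatin cut enzymatically. The protocol also names a control IgG, and 2 input samples belong to the series but gave no values used here. Whether the 2 ChIP replicates are separate cultures is not stated in the labels, and differences between them can be technical. There is no second condition. The chromosome was singled out because of its peak counts, folds and backgrounds in these same lists, so those values are given below as a description and without tests.

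Deaf1 is a transcription factor that binds DNA through a SAND domain, with a preference for TTCG motifs in CpG-rich sequence, and carries a MYND domain that contacts other proteins. A peak caller such as MACS2 counts the fragments that cover each position, the pileup, and compares them with an expected number, the background. The background is the highest of several averages, one over the whole genome and others over windows around the position. It stands above a common lowest value only where a window around the peak holds more fragments than the genome on average. Whether those fragments were counted in a control or in the ChIP itself is not stated in the sources used. The fold is the pileup divided by the background, each with 1 added, at the peak's summit, its highest position.

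The sequences upstream of 4 chromosome 15 genes are shown because both replicates had a summit within or beside them and because no annotated model of the same gene starts further upstream. Each runs from 250 bases before a RefSeq start site (GRCm38.p6, the assembly behind mm10) to the base before it, 5′ to 3′ on the gene's strand, with TTCG or its reverse complement CGAA in capitals. All 4 genes lie on the plus strand.
Ank, chr15:27466427-27466676: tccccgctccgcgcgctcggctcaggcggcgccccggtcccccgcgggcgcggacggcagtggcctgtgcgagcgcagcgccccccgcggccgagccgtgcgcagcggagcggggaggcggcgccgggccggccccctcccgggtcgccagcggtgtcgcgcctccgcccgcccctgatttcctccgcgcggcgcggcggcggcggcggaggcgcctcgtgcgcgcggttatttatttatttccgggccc
Cdc42ep1, chr15:78842397-78842646: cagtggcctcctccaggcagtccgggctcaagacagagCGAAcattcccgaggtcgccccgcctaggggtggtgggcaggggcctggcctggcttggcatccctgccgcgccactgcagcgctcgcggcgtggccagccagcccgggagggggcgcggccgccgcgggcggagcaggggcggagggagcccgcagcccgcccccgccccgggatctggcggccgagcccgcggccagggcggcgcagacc
Aqp5, chr15:99590778-99591027: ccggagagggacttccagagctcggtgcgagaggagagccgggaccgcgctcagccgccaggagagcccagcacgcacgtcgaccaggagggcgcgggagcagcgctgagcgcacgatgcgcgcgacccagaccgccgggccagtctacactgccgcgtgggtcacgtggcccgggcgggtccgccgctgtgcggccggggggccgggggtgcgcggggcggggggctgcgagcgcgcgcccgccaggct
Tmem117, chr15:94628935-94629184: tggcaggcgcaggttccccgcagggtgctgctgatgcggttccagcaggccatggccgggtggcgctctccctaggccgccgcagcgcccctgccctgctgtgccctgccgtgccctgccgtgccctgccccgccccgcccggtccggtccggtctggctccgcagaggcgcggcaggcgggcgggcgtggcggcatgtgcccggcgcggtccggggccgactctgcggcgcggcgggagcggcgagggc
Ank encodes a membrane protein that raises pyrophosphate outside the cell, and the 2 lists give it folds of 34.7 and 35.3, with summits 152 and 161 bases upstream of the start. The sequence holds 49 CpG dinucleotides and no TTCG on either strand. Cdc42ep1, an effector of the small GTPase Cdc42, had folds of 31.0 and 23.1, summits 48 and 72 bases upstream, 29 CpG and 1 CGAA. Aqp5, a water channel, had folds of 25.9 and 30.3, with the replicate 1 summit 42 bases after the start and the replicate 2 summit 50 bases before it, and 38 CpG. At Tmem117, a membrane protein gene, the folds were 23.6 and 25.8 and the summits lay 91 and 69 bases upstream, in a sequence with 33 CpG. Neither Aqp5 nor Tmem117 had a TTCG in the printed bases, so 1 of these 4 sequences holds the motif. These letters describe the windows and do not mark binding sites.

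Over the promoters that the RefSeq table gives, each 300 bases long with 250 upstream and 50 downstream of the start, TTCG on either strand was present in 49.7% of the 20085 on the autosomes. It was present in 195 of the 313 chromosome 15 promoters (62.3%) that had a summit of both replicates within 1 kb of the start, and in 58 of the 142 (40.8%) that had none. On the other autosomes these shares were 61.5% and 32.6%. Where both summits fell inside the window itself, 33 of 69 chromosome 15 promoters (47.8%) held the motif. The CpG content of these classes also differed, with medians of 24, 4 and 31 CpG per window for summits within 1 kb, none, and inside the window, and its part in the shares was not tested. Of 422 chromosome 15 genes with a start site in the table, 271 (64.2%) had both replicates within 1 kb of a start, against 54.8% of genes on the other autosomes. The median summit lay 110 bases downstream of the start in replicate 1 and 100 in replicate 2, beside 101 and 96 elsewhere.

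Chromosome 15 carried more Deaf1 peaks for its genes than any of the 18 other autosomes, in both replicates. It has 776 protein-coding genes, the 15th highest number of 19 autosomes. Replicate 1 gave 6.01 peaks per gene, where the next highest was 4.02 on chromosome 5 and the median of the others 3.03. Replicate 2 gave 2.31, with 1.57 on chromosome 10 next and a median of 1.22. Per Mb from the chromosome's start to its last gene or peak end, chromosome 15 was second. It had 44.9 and 17.2 peaks, after 51.4 and 19.1 on chromosome 11. The median gap between neighbouring peaks was 2989 bp in replicate 1 and 9595 bp in replicate 2, the shortest of the 19 in each. Peaks with a fold of 10 or more were likewise the most frequent per gene, 1.22 and 0.751, against at most 0.944 and 0.636 on another autosome.

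**Figure D1:**
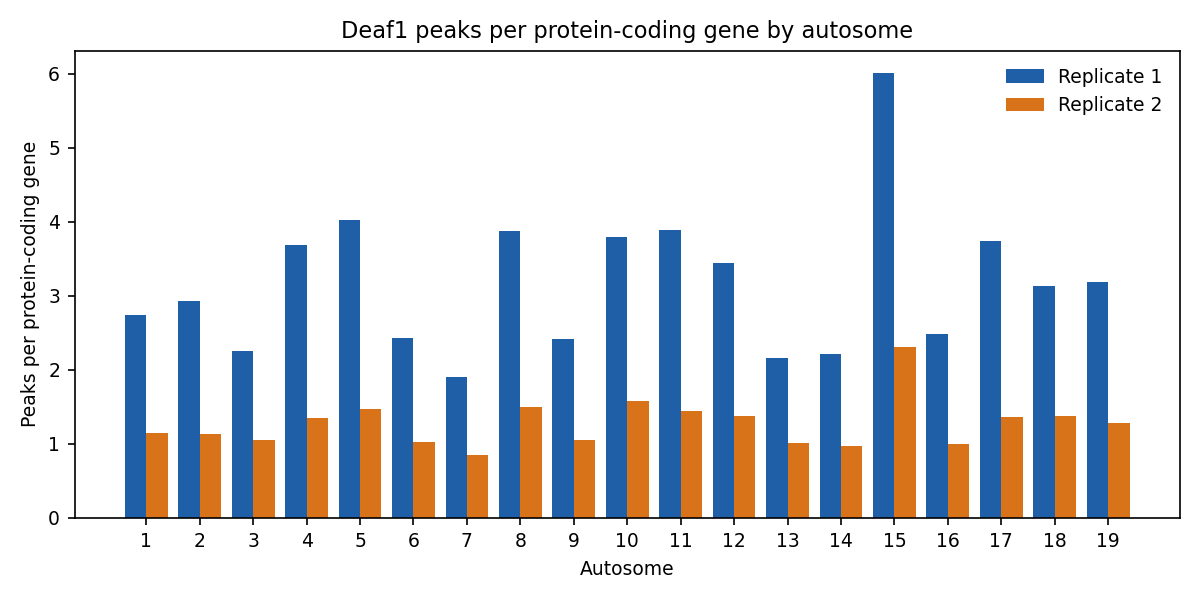
Deaf1 peaks per protein-coding gene on each autosome (y axis, peaks divided by genes), with replicate 1 in blue and replicate 2 in orange. The bars of chromosome 15, 6.01 and 2.31, are the highest of each colour, and those of chromosome 7, 1.90 and 0.846, the lowest.

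Folds on chromosome 15 were lower at the median than on any other autosome. The median fold of chromosome 15 peaks was 5.75 in replicate 1, where the other autosomes ran from 6.07 to 6.70, and 6.58 in replicate 2, where they ran from 7.21 to 10.2. Folds under 5 made up 36.4% and 30.7% of the chromosome's peaks, against 29.7% and 19.6% of all peaks of the other autosomes. The median pileup was 18 fragments in both replicates, beside 19 and 24 elsewhere. When each pileup was divided by the list's lowest background in place of the peak's own, the median became 6.07 in replicate 1, equal to the lowest of the other autosomes, and 7.21 in replicate 2, below the lowest of the others, 7.59. Fewer chromosome 15 peaks lay within 1 kb of a coding gene's end, 19.5% and 33.5%, than on any other autosome (from 22.7% and 42.6%). Fewer also had an overlapping peak in the other replicate, 30.4% of replicate 1 and 86.1% of replicate 2 peaks, and the 249 replicate 2 peaks without a partner were the most of any autosome.

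Backgrounds raised above the common lowest value were more frequent on chromosome 15 than on any other autosome. A background was called raised where it exceeded the list's lowest value, 2.13 fragments in replicate 1 and 1.64 in replicate 2, by more than 0.003 fragments. In replicate 1 this held for 2085 peaks, 44.7% (95% interval 43.3 to 46.2), against 19.6% of peaks on the other autosomes. In replicate 2 it held for 765 peaks, 42.7% (40.4 to 45.04), against 23.8%. Chromosome 10 came next with 28.6% and 31.0%, and chromosome 7 was lowest with 11.0% and 13.7%. With a stricter limit, an excess over 25% of the lowest value, the shares were 27.0% against 15.2% of peaks on the other autosomes in replicate 1 and 25.2% against 17.7% in replicate 2, and chromosome 15 was still highest. The intervals are exact Clopper-Pearson intervals and cover counting error only, with each peak taken as independent. Neighbouring peaks can share a background window, so the intervals can be too narrow. Over all raised backgrounds together, the median was 2.67 fragments in replicate 1 and 2.17 in replicate 2. These medians were alike on chromosome 15 and on the other autosomes, and medians by kind of background follow below.

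Raised backgrounds fell into 3 kinds by the steps their values took. Narrow ones were whole multiples of a single step, 0.668 fragments in replicate 1 and 0.542 in replicate 2. A second kind took that step rescaled from the shortest peak's length to 1 kb, 0.109 and 0.0834 fragments. All that remained lay within 0.001 fragments of the step rescaled to 10 kb, 0.0109 and 0.00834, although a band that wide covers only 18.4% and 24.0% of possible values. The caller's settings are not known, so the link of these kinds to windows of 1 kb and 10 kb rests on the steps alone. The third kind, called broad here, occurred at 436 of its replicate 1 peaks (9.35%) and at 467 peaks on all other autosomes together (0.781%). In replicate 2 the counts were 177 (9.88%) and 260 (1.08%). Chromosome 10 was again next, with 3.90% and 4.57%. Broad backgrounds exceeded the lowest value slightly, with chromosome 15 medians of 2.31 and 1.80 fragments, against 2.25 and 1.73 elsewhere. Narrow backgrounds had a median of 3.34 against 2.67 in replicate 1 and 2.71 on both sides in replicate 2. Those of the 1 kb kind had 2.50 on both sides in replicate 1 and 2.001 against 1.92 in replicate 2. Backgrounds of the 1 kb kind made up 14.7% and 15.97% of chromosome 15 peaks, also the highest shares, and narrow ones 20.7% and 16.9%, the highest in replicate 1 and second to chromosome 16 (17.3%) in replicate 2.

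**Figure D2:**
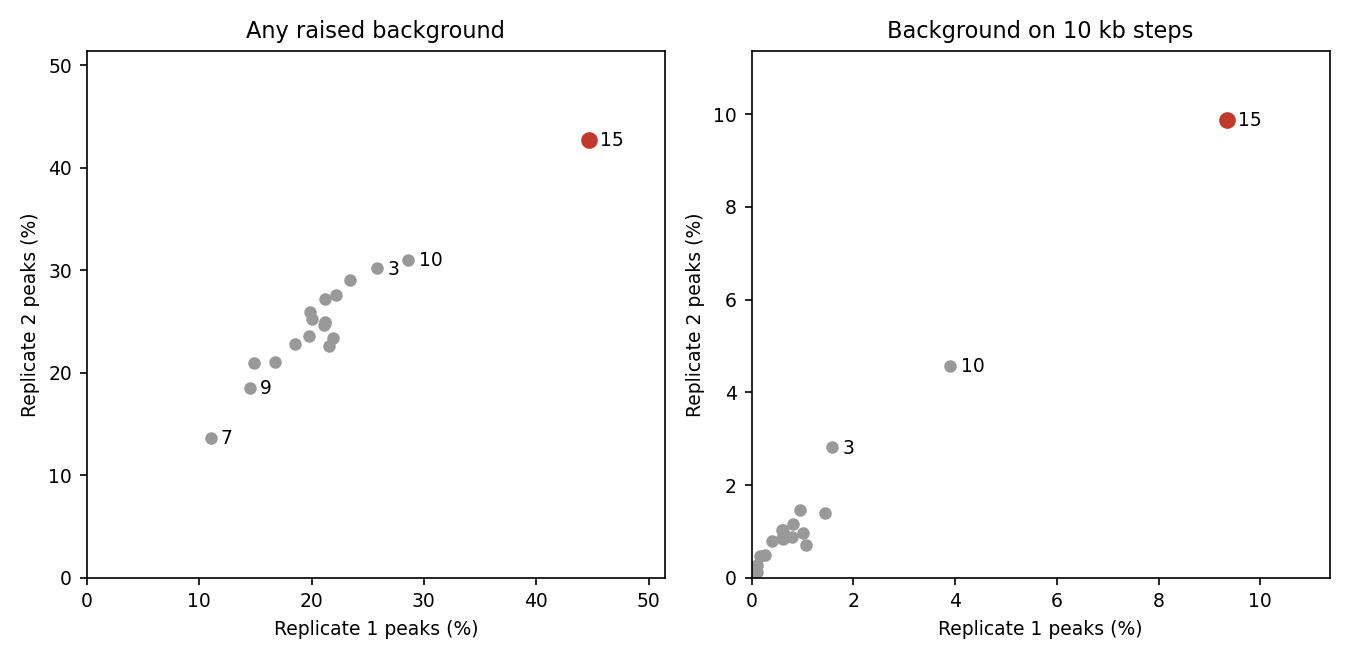
Share of each autosome's peaks (%) with any raised background (left) and with a background on the steps of a 10 kb window (right), replicate 1 on the x axis and replicate 2 on the y axis, 1 point per autosome. Chromosome 15, in red, stands at 44.7% and 42.7% on the left and 9.35% and 9.88% on the right, apart from chromosome 10 at 28.6% and 31.0% and at 3.90% and 4.57%.

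Peaks followed the genes along the chromosome. From 3 to 104 Mb there were 101 bins of 1 Mb, of which 9 held no peak of either replicate and 18 no region shared by both, and 12 bins held at least 50% of the replicate 1 peaks. The median bin had 13 peaks in replicate 1 and 7 in replicate 2, and the fullest, from 76 to 77 Mb, had 307 and 138. Across the bins, the peak counts of the replicates had a Spearman correlation of 0.968, and the number of coding genes correlated with the counts at 0.866 and 0.872. Bins of one chromosome share their libraries and differ in base composition, so these are descriptions. The gene-poor bins around 14 to 20 Mb and 46 to 48 Mb were nearly free of peaks.

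The share of raised backgrounds exceeded that of the other autosomes in nearly every well-filled bin. Of 43 bins with at least 10 peaks in each list, 38 (88.4%) lay above 19.6% in replicate 1 and above 23.8% in replicate 2, and all 43 did so in replicate 1. The other autosomes reached at most 65.8%, on chromosome 10. Shares in the 43 bins ran from 22.7% to 86.2% in replicate 1 and from 17.9% to 90.0% in replicate 2, with medians of 46.3% and 46.2%. Replicates ordered the bins alike, with a Spearman correlation of 0.816, where the next highest autosome, chromosome 8, had 0.740. On chromosome 15, 86.1% of replicate 2 peaks overlap a replicate 1 peak, and whether the lists share a control is not known. The shares of the replicates may therefore not be independent. Broad backgrounds were likewise spread out: they occurred in 80 of the 92 bins with a replicate 1 peak and in 68 of the 84 with a replicate 2 peak.

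**Figure D3:**
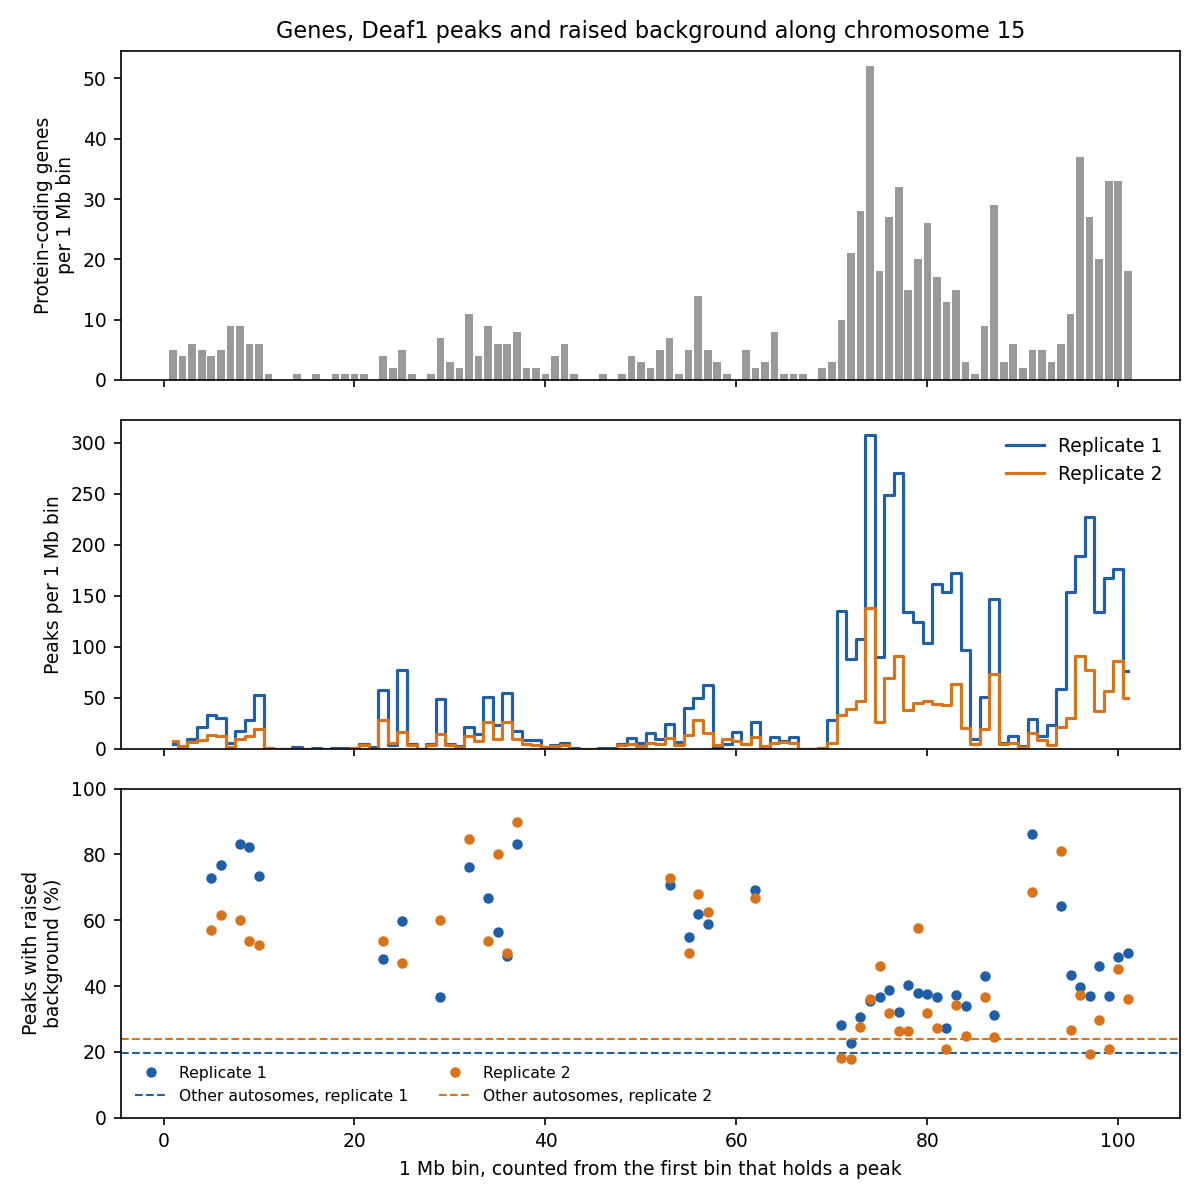
Protein-coding genes (top), Deaf1 peaks (middle) and the share of peaks with raised background in bins with at least 10 peaks in each list (bottom, %), in successive 1 Mb bins on the x axis. Replicate 1 is blue and replicate 2 orange, and the dashed lines give the other autosomes, 19.6% and 23.8%. The gene-rich bins on the right hold most peaks, and many points of the gene-poor bins on the left stand higher, up to 83.3% and 90.0%.

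A boundary at 72 Mb, chosen after the bins were seen, separates a gene-poor from a gene-rich stretch. From 3 to 72 Mb there were 226 genes, 964 peaks of replicate 1 and 453 of replicate 2, and 67.9% and 69.5% of these peaks had a raised background. From 72 to 104 Mb there were 548 genes and 3698 and 1338 peaks, with raised shares of 38.7% and 33.6%. Broad backgrounds made up 24.7% and 26.0% of peaks in the first stretch and 5.35% and 4.41% in the second. Shared regions numbered 292 and 1123, or 1.29 and 2.05 per gene. The gene-rich stretch thus held the higher density of peaks per gene, and the gene-poor stretch the higher share of raised backgrounds.

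Chromosome 15 also stood apart from bins with like numbers of genes. Bins were grouped by their number of coding genes, in classes chosen after the bins were seen. In bins with 1 to 5 genes, 66.3% of chromosome 15 peaks of replicate 1 and 69.9% of replicate 2 had a raised background, against 22.9% and 25.5% in such bins elsewhere. With 6 to 15 genes the shares were 47.2% and 47.1%, against 21.0% and 25.8%. With 16 to 30 genes they were 37.0% and 30.5%, against 17.6% and 22.0%, and with over 30 genes 37.8% and 34.3%, against 17.8% and 21.2%. The median number of replicate 1 peaks per bin was 5 on chromosome 15 and elsewhere in the class with 1 to 5 genes, and then 49 against 21, 124 against 56 and 189 against 101. In replicate 2 these medians were 4 against 3, 15 against 10, 47 against 23 and 91 against 41. The share of raised backgrounds was higher on chromosome 15 in all 4 classes of both replicates.

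**Figure D4:**
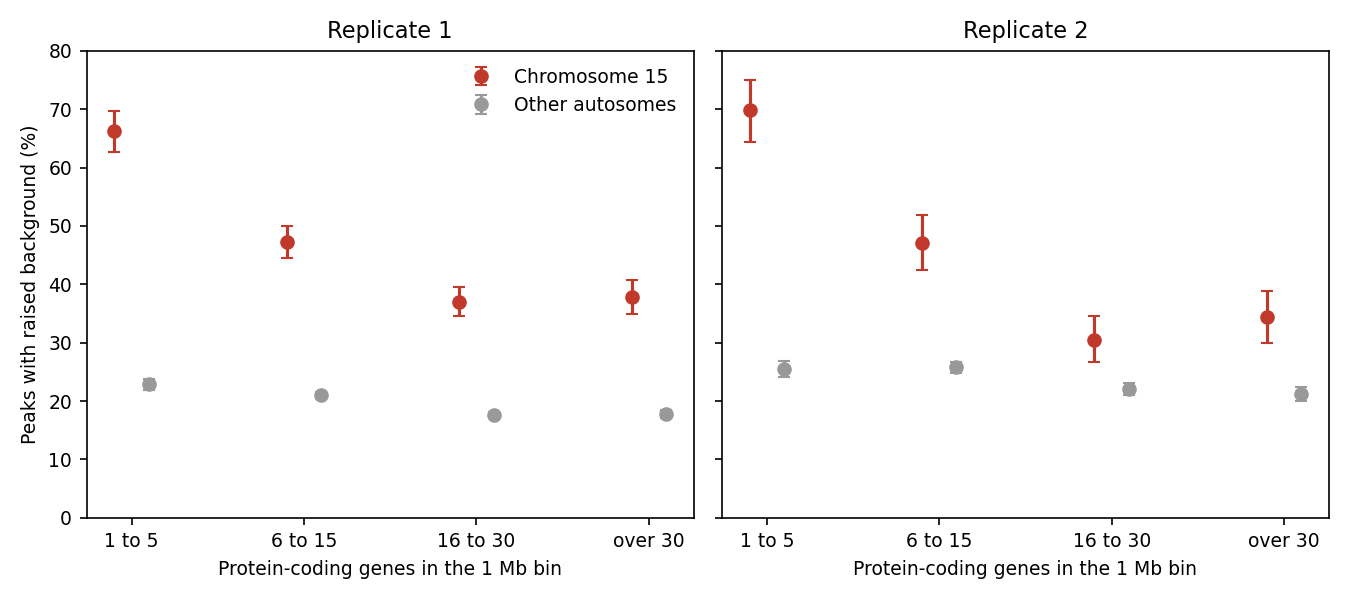
Share of peaks with raised background (y axis, %) by the number of protein-coding genes in the 1 Mb bin (x axis), for chromosome 15 (red) and the other autosomes (grey). The exact 95% intervals cover counting error and take peaks as independent, which neighbouring peaks need not be. Chromosome 15 is higher in every class of both replicates, from 66.3% against 22.9% with 1 to 5 genes to 37.8% against 17.8% with over 30 in replicate 1.

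Named bins show both ends of this range. The bin from 76 to 77 Mb had 52 genes, 45 of them with a peak of both replicates within 1 kb of the same gene end, and 115 shared regions. Its highest shared region, at an end of Iqank1 and inside Fam83h, a gene needed for tooth enamel, had folds of 32.2 and 33.4. The bin from 79 to 80 Mb had 85 shared regions, led by one inside Csnk1e, a casein kinase of the circadian clock. Next were 102 to 103 Mb with 78, led by Pcbp2, an RNA-binding protein gene, and 98 to 99 Mb with 75, led by Cacnb3, a voltage-gated calcium channel subunit. The bin from 99 to 100 Mb had 63, led by Smarcd1, a subunit of SWI/SNF chromatin remodelling complexes, with folds of 26.2 and 30.7. Raised backgrounds in these 5 bins made up 32.2% to 48.9% of replicate 1 peaks and 19.5% to 45.3% of replicate 2 peaks.

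Bins with at least 10 peaks in each list were ranked by the lower of their 2 shares of raised background, and some bins with fewer peaks had higher shares. First among the ranked bins, 39 to 40 Mb had 18 and 10 peaks, of which 83.3% and 90.0% were raised. Its highest region lay at Fzd6, a Wnt receptor, with folds of 28.7 and 26.5 over the lowest backgrounds. The bin from 34 to 35 Mb reached 76.2% and 84.6% and was led by a region at Mtdh with folds of 28.7 and 20.8. From 55 to 56 Mb the shares were 70.8% and 72.7%, and the region at Deptor, an inhibitor of mTOR, had folds of 17.6 and 17.0 with backgrounds of 3.27 and 2.42 fragments. From 93 to 94 Mb they were 86.2% and 68.8%, led by a region inside Prickle1, a planar cell polarity gene. That region lay 20077 bp from the gene's nearer end and had folds of 30.4 and 22.9. From 64 to 65 Mb they were 69.2% and 66.7%, led by Cyrib, a regulator of the Rac1 GTPase, with folds of 28.7 and 31.5. Strong regions thus occurred in these bins too, some over the lowest background and some over raised ones.

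Both replicates shared 1415 regions on chromosome 15, blocks of peaks that overlap by at least 1 bp, which is 6.34% of the 22317 on all autosomes. With 1.82 per gene the chromosome was again highest, before 1.32 on chromosome 8. Without olfactory and vomeronasal receptor genes it had 1.84 and stayed highest, while the median of the other autosomes rose from 1.05 to 1.19. That comparison was added after the data were seen, and peaks per gene were not recounted without these genes. Of the 1415 regions 537 (38.0%) lay at a coding gene's end, 661 (46.7%) inside a coding gene and 217 (15.3%) outside coding genes. The share at gene ends was the lowest of the autosomes, where the others had 44.0% to 58.4%. Regions away from gene ends numbered 1.13 per gene, with 0.702 next, and regions at gene ends 0.692, with 0.622 next. The excess per gene was therefore larger away from gene ends. In 1199 regions (84.7%) the summits of the replicates lay within 100 bp of each other. The median folds were 11.8 and 7.96, and replicate 1 had the higher fold in 1022 regions.

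Weaker regions took a larger share than elsewhere. Of the chromosome's shared regions 21.9% had a lower fold under 5, taking the smaller of the replicate values, against 15.9% on the other autosomes. Regions of 20 or more numbered 160 and made up 11.3%, against 13.2%. Gene ends held 62.5% of these 160 and 16.5% of those under 5, against 77.3% and 24.6% elsewhere. Backgrounds raised in both replicates were found in 46.2% of the 160 strongest regions, against 12.8% of such regions on the other autosomes, and in 457 of all 1415 (32.3%), with 22.8% on chromosome 10 next. Of the 100 shared regions highest by lower fold on the autosomes 15 lay on chromosome 15. Of the highest 1000 it held 67 (6.7%), near its 6.34% of all shared regions.

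The 10 strongest shared regions lay at 5 coding genes' ends, inside 4 coding genes and 58274 bp from any coding gene's end. Noncoding genes were not searched. The Ank region, chr15:27466213-27467313 (mm10), whose upstream sequence is printed above, had pileups of 113 and 102 fragments over backgrounds of 2.29 and 1.92. The region inside Cacnb3, 6415 bp from its nearer end, had folds of 34.2 and 39.8, and that at Iqank1 is given above. Inside Csnk1e, 13841 bp from an end, the folds were 33.8 and 31.3. The region at Pcbp2 had folds of 30.8 and 31.0, and the one inside Rai14, an actin-binding protein gene, 31.8 and 30.3. At Arf3, a small GTPase of vesicle traffic, they were 30.3 and 35.7. Inside Ptp4a3, a tyrosine phosphatase gene, they were 30.3 and 34.9. The region outside coding genes, chr15:36938347-36939174, had folds of 30.3 and 33.0 with Zfp706 as its nearest coding gene. At Dennd3, an activator of Rab GTPases, the folds were 30.01 and 29.96. All 10 thus had folds between 29.96 and 39.8 in both lists, and 5 of the 10 stood over the lowest background in both.

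The regions with the highest background, ranked by the lower of the 2 lists' values, were looked up after the backgrounds were seen. Beside Ano6, a calcium-activated phospholipid scramblase gene, 44 bp outside its end, 80 and 69 fragments stood over backgrounds of 40.7 and 26.5, so the folds were 1.94 and 2.54. A neighbouring region at the same gene had backgrounds of 22.9 and 15.8 and folds of 3.14 and 3.21. At Spats2 the pileups were 103 and 106, close to those at Ank, but the backgrounds of 16.2 and 13.6 left folds of 6.04 and 7.33. The region inside Trio, a guanine nucleotide exchange factor gene, had backgrounds of 11.4 and 11.9. It lay 1047 bp from the gene's nearer end, just beyond the 1 kb limit. At Atad2, a bromodomain ATPase gene, the backgrounds were 10.02 and 9.75. At these 5 regions the pileups ran from 53 to 106 fragments, and the folds were 8.66 or less. The widest region spanned 4084 bp inside Plec, the gene of the cytolinker plectin, and had folds of 17.9 and 19.3.

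Deaf1 peaks of both replicates lay within 1 kb of the same end of 491 of the chromosome's 776 coding genes, or 63.3% (59.8 to 66.7). On the other autosomes together this share was 52.2%, with 61.8% on chromosome 8 next below and 40.1% on chromosome 7 lowest. Chromosome 8 had an interval of 58.8 to 64.8, so the ranges overlap, and no test was made. These intervals take genes as independent, although neighbouring genes can share a peak. Olfactory and vomeronasal receptor genes number 9 on chromosome 15 and 1449 on the other autosomes, and without them the shares were 64.0% and 56.3%, a comparison added after the data were seen. The median lower fold at occupied genes was 14.0 on chromosome 15 and 14.0 elsewhere. Backgrounds at these peaks were raised in both replicates at 271 of the 491 genes (55.2%), against 26.3% of occupied genes on the other autosomes.

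The chromosome's genes were also read by group, with a gene called occupied by the rule above. The groups were written with earlier results of these data known, and their counts are set beside the 63.3% of all chromosome 15 genes without a test. Neighbouring genes can share a peak, as do Cpt1b with Chkb, Tst with Mpst, Nsmce2 with Washc5 and Ndufb9 with Tatdn1.

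Of 25 muscle genes 17 were occupied, with a median lower fold of 15.6. Mapk11, a p38 kinase, had folds of 22.7 and 26.9, and Klf10, a zinc finger factor, 25.3 and 21.8. Mb, which encodes myoglobin, and Mapk12, the p38 kinase abundant in muscle, had no peak of both replicates at an end. Mapk12 had a shared region 1128 bp from an end with folds of 30.01 and 26.9, just beyond the 1 kb limit, and Mb had one 4853 bp inside with 11.8 and 5.31. All 25 had at least 1 shared region in or beside their span. This rule is looser than the one for occupied genes, and its share over all genes of the chromosome was not counted. Ptk2, the focal adhesion kinase gene, named after its values were seen, had 15.6 in replicate 1 over a background of 5.34 and 37.5 in replicate 2 over 1.64, the widest difference by subtraction in this group. By ratio the gap was wider at Cacnb3, with 14.4 and 4.93 at its end.

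Genes of translation and of mitochondria were occupied at 12 of 13 and 14 of 17. Among the former, Eif4b, an initiation factor, had folds of 22.6 and 29.2 and Pabpc1, the poly(A)-binding protein, 25.3 and 20.2, while Rpl3, a ribosomal protein, had 2 peaks of replicate 1 and none of replicate 2 in its span. The translation genes' median lower fold was 11.4. Among mitochondrial genes, with a median of 15.9, Cyc1, the cytochrome c1 subunit of complex III, had 26.8 and 32.2, and Oxct1, an enzyme of ketone body use, 27.8 and 26.4. Ndufa6, a complex I subunit, and Txn2, the mitochondrial thioredoxin, had no peak in either list. Backgrounds were raised in both replicates at 11 of the 12 and 13 of the 14 occupied genes, beside 55.2% of all occupied genes of the chromosome.

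Myc, the growth-regulating transcription factor gene, had folds of 13.8 and 9.17. With its neighbours 15 of 21 genes were occupied, with a median of 14.8. Cyrib was the highest, with the folds given above, and Rnf139, a ubiquitin ligase gene, followed with 24.0 and 29.9. Gsdmc, of the pore-forming gasdermins, had no peak in either list, and Lratd2 had its shared region 2775 bp from an end, with 18.5 and 12.002. Backgrounds were raised in both replicates at 13 of these 15 genes.

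Of 24 listed keratin genes, which encode epithelial intermediate filaments, 11 were occupied, with a median of 8.72. The list leaves out Krt87, occupied with folds of 17.2 and 10.999, and Krt88, not occupied, both named after their values were seen. Krt7 had folds of 16.3 and 13.3 and Krt1 14.4 and 12.1. Krt2 had a region 3238 bp from its nearer end with 4.79 and 4.93, and Krt6a no peak. Of these 11 genes 10 stood over the lowest background in both replicates, and 0 were raised in both. Over all occupied genes of the chromosome 67.0% were raised in replicate 1, 64.4% in replicate 2 and 55.2% in both. Of 15 listed genes of the Ly6 family of lipid-anchored surface proteins 5 were occupied, led by Ly6e (18.6 and 16.7) and Ly6h (10.5 and 7.59). No peak of either list was found at 7 of the 15, Ly6a and Ly6c1 among them. The share of all genes without a peak was not counted.

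The Hoxc cluster of homeobox genes, which pattern the body axis, was occupied at 9 of 9, with a median of 17.1. Hoxc13 had folds of 23.3 and 24.7 and Hoxc8 19.5 and 21.6, and the lowest of the 9 was Hoxc10 with 14.7 and 6.93. Of these genes 4 stood over the lowest background in both lists and 3 had it raised in both, beside 55.2% raised in both over all occupied genes. All 3 alpha tubulin genes, building blocks of microtubules, were occupied, with Tuba1b at 16.2 and 16.2 and Tuba1a at 21.4 and 12.5. Among 6 cadherin genes Celsr1 was occupied (20.1 and 20.9), Cdh6 had a region 3171 bp from an end (11.96 and 12.03) and Cdh9 no peak.

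Cytokine receptor genes were occupied at 3 of 10, where Osmr, the oncostatin M receptor, had folds of 20.2 and 15.2 and Ghr, the growth hormone receptor, 27.5 and 12.2. Il7r, the interleukin 7 receptor, had no peak. Lifr, the leukaemia inhibitory factor receptor, counted as not occupied because its region lay 38852 bp from the nearer end of its span. That region had folds of 22.8 and 34.1, and its summits lay 128 and 92 bases upstream of an internal RefSeq start site, so the count by gene ends misses it.

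**Figure D5:**
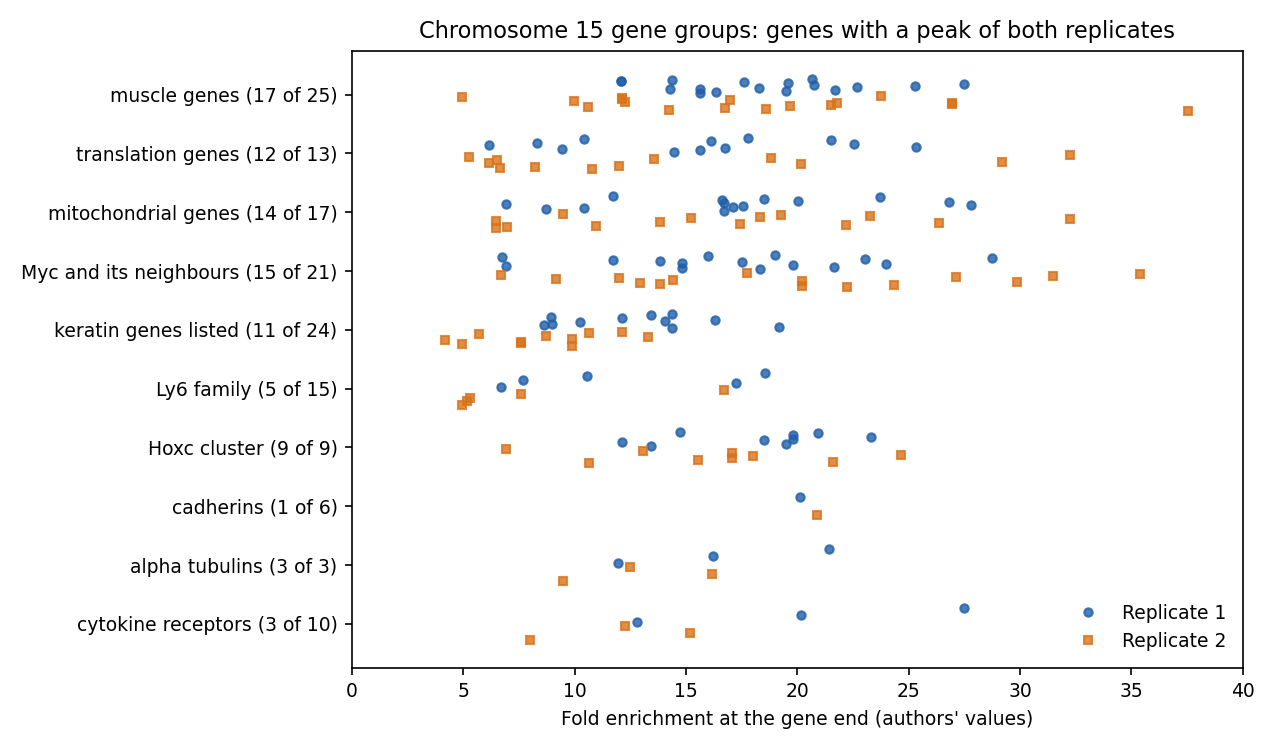
Fold at the gene end (x axis, the authors' values) for the occupied genes of each chromosome 15 group (y axis, occupied of all members in parentheses), replicate 1 as blue circles and replicate 2 as orange squares. Hoxc genes (9 of 9) and translation genes (12 of 13) are nearly all present, keratin and Ly6 genes are at 11 of 24 and 5 of 15, and the keratins' replicate 2 folds are 13.3 or less.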

How the data were processed

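The authors deposited a separate peak list for each of the 2 Deaf1 ChIP samples. BWA and MACS2 were used with build mm10, per the submitters' processing notes. Their versions and settings, and which control, if any, the caller had, are not given in the sources used. The deposited fold is the authors' ratio of pileup to background. The −log10 p and −log10 q are also the authors' deposited values, and the deposited score was not used. The files give no read depth.

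Pileup and background were solved from fold and −log10 p under a Poisson model (largest misfit 4.07e-05 and 3.87e-05). On data simulated under the same model, this recovered 100% of 3641 and 3547 pileups, which checks the arithmetic and not the model. Positions were converted to 1-based. Gene spans came from RefSeq (GRCm38.p6), and only protein-coding genes were used for ends, distances and counts. Ends of spans were used for all genes, in place of the planned start sites, because the promoter table covers 422 of 776 chromosome 15 genes. Named genes lay at the 10 highest shared regions by lower fold, at the highest region of 5 bins with the most shared regions and of 5 with the highest raised share among bins with at least 10 peaks in each list (by the lower share), or were up to 4 per gene group (the 2 highest and up to 2 listed first without a peak of both). Genes named for printed sequences, backgrounds, widths, replicate gaps or their absence from a list, and Myc, Hoxc10 and genes that share peaks, fall outside that rule and were chosen after their values were seen. Members and lists were chosen with earlier results of these data known. Python 3.11.15, pandas 2.3.3 and SciPy 1.17.1 were used.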

Additional observations from a re-analysis of the deposited data

How the results depend on the processing

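No paired analysis was possible because the results come from no test and the inputs that share the replicate numbers gave no values. Chromosome 15 stayed highest of the autosomes for raised backgrounds, genes occupied and shared regions per gene under every alternative run for them. Its median fold, lowest of 19 by default, ranked 17 with folds of 5 or more and with shared peaks in replicate 1, and 18 with folds of 5 or more in replicate 2. The share of raised backgrounds in replicate 1 became 40.5% with folds of 5 or more, 46.5% with lists of equal length, 48.9% among shared peaks, 39.1% for an excess over 0.1 fragments and 27.0% for one over 25%. In replicate 2 the latter 2 gave 37.4% and 25.2%. The other autosomes had 15.2% and 17.7% by the 25% limit, and the next highest autosome 19.3% and 21.9%. The median fold became 6.70 and 8.62 with −log10 q of 5 or more, 7.35 and 9.48 with folds of 5 or more, and 11.7 and 7.59 among shared peaks. With 500 kb bins 74.5% stood above the other autosomes in both lists. Genes occupied became 53.6% within 500 bp and 75.4% within 5 kb. With 1 list alone, single peaks were counted in place of shared regions, 1791 without replicate 1 and 4662 without replicate 2. In the same order, bins above were 88.6% and 100%, and genes occupied 64.2% and 75.8%. The causes were not tested beyond the changes that each limit makes by its construction. With 2 lists, a single peak has no error estimate beyond counting, and read depth is unknown.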
